A study of Mus musculus with 6 samples.

Results

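The genes described here are 10 RNA-binding and splicing factors, most of them neuronal. They are Elavl2, Elavl3, Elavl4, Celf3, Celf4, Nova1, Nova2, Rbfox2, Ptbp1 and Ptbp2. The 10 were chosen by name from 5 protein families, out of 23361 gene symbols in the expression table. Their RNA was measured in mouse small-cell lung cancer (SCLC) cells with and without a constitutively active form of TAZ, the transcriptional co-activator of the Hippo pathway that is encoded by Wwtr1. The cells, called SMC, had been sorted for high NCAM and low or no CD44 from the lung tumours of Rb1L/L Trp53L/L mice of mixed C57Bl/6, Balb-c and S129 background, which had been given an adenovirus carrying Cre through the airway, and the study describes Rb1 and Trp53 as deleted in the sorted cells, so both groups share this genotype. They were grown in RPMI medium with serum, infected with a control retrovirus (SMC-Ctrl, 3 libraries) or with a pBabe retrovirus carrying TAZ-4SA (SMC-TAZ4SA, 3 libraries), and selected with puromycin. The sorted cells were kept as a line, and the agent is a forced mutant protein. The labels do not say whether the 3 libraries of a group had their own cultures, so a p-value here covers the scatter among libraries only, and that scatter may be technical.

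These factors bind messenger RNA precursors and messenger RNA. The neuronal ELAVL proteins bind U-rich elements and affect the stability, polyadenylation and splicing of neuronal transcripts. CELF, NOVA and RBFOX proteins bind UG-rich, YCAY and UGCAUG elements and act mainly on alternative exons, with NOVA restricted largely to neurons. The polypyrimidine tract-binding proteins repress exons. PTBP1 is found in most dividing cells, and PTBP2 takes its place as neurons form. Neuroendocrine cells of the lung, and the SCLC cells related to them, express many genes that are otherwise typical of neurons.

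The deposited values were fragments per kilobase of transcript scaled to the mapped fragments of the library (FPKM). They are scaled by gene length, so levels of different genes can be set side by side. Read counts were not used here, and the total depth is unknown. The relative depth read from the spacing of low values was 0.713 to 1.09 times that of SMC-Ctrl replicate 1. The FPKM values of a library summed to between 284422 and 297034 in SMC-Ctrl and to between 324938 and 361800 in SMC-TAZ4SA. Wwtr1, the gene delivered by the virus, stood at 0.143 ± 0.0329 FPKM (SD, n = 3) in SMC-Ctrl and at 34.5 ± 2.41 FPKM (SD, n = 3) in SMC-TAZ4SA, which is the direction the labels give. Differences were tested with limma on log2(FPKM + 1) over 12141 genes with at least 1 FPKM in at least 3 of the 6 libraries, and p-values were adjusted by the Benjamini-Hochberg method over all of them. A gene was called at an adjusted p under 0.05. On this scale the change of a gene at low FPKM is understated, so the ratio of group means is given too. The contrast was broad. Of the genes tested, 80.3% were called, 39.7% lower and 40.7% higher in SMC-TAZ4SA. With every library scaled to the same FPKM total, the shares were 48.4% lower and 32.8% higher, and the share of called genes that were higher moved from 50.6% to 40.4%.

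Elavl2, Elavl3, Elavl4, Celf3, Celf4, Nova1, Nova2 and Rbfox2 were lower in SMC-TAZ4SA (8 of 10), none was higher, and Ptbp1 and Ptbp2 did not pass the test. Over all tested genes 39.7% were lower. The sizes separated the 10 genes. Elavl3, Celf3 and Celf4 were lower by 256-fold to 888-fold in the ratio of group means, Nova2 by 32.4-fold, Elavl2, Elavl4 and Nova1 by 2.89-fold to 4.50-fold, and Rbfox2 by 1.14-fold. Elavl3, Celf3, Celf4 and Nova2 passed the filter on low values only through the SMC-Ctrl libraries, so they had to differ to be tested, and their calls count for nothing beyond their values. Of the 6 that reached 1 FPKM in both groups, 4 were lower and 2 were not called, against 37.3% lower and 23.4% not called among the 10216 tested genes of that kind. The 3 libraries of one group lay apart from the 3 of the other for 9 of the 10 genes, Ptbp2 being the exception. Of all tested genes 82.4% had such a gap in either direction, and 40.6% had it with the SMC-TAZ4SA libraries below.

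**Figure D1:**
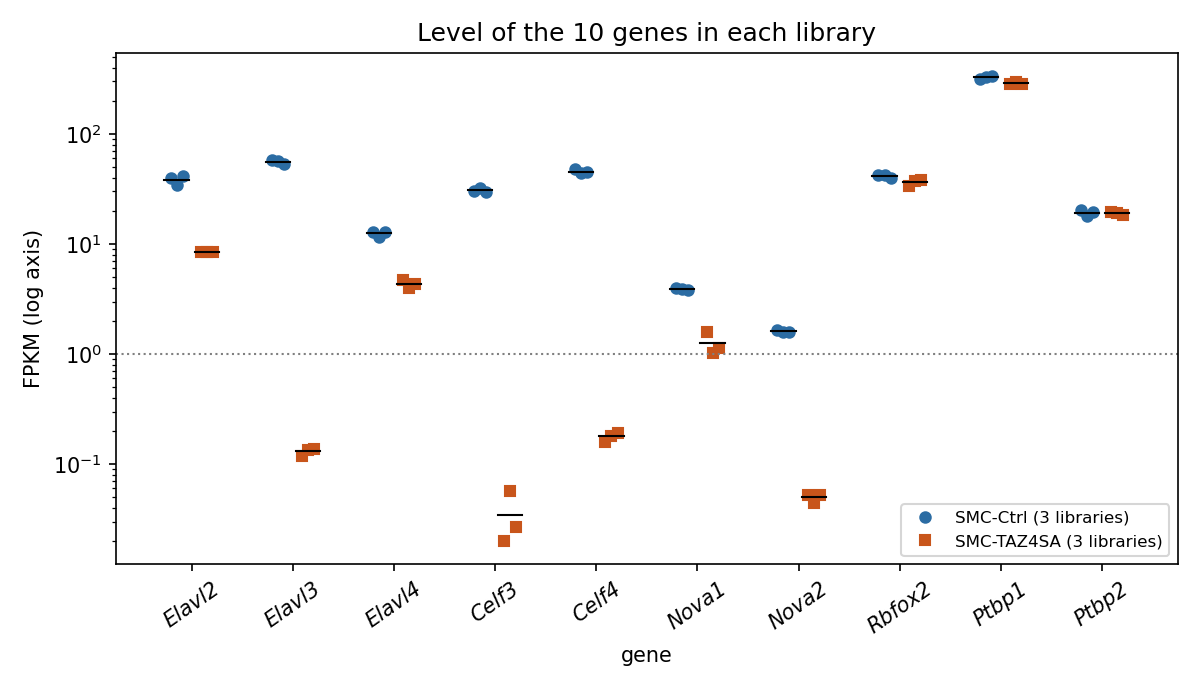
FPKM of the 10 genes in each library, on a log axis; circles are the 3 SMC-Ctrl libraries, squares the 3 SMC-TAZ4SA libraries, black bars the group means, and the dotted line 1 FPKM. Elavl3, Celf3, Celf4 and Nova2 lie below the dotted line in every SMC-TAZ4SA library, while Ptbp1 stays between 284 and 335 FPKM and the Ptbp2 libraries overlap.

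The 3 neuronal ELAVL genes, which encode the HuB, HuC and HuD proteins, were all lower in SMC-TAZ4SA, and Elavl3 was nearly lost. Elavl3 (HuC; chromosome 9, 22015005 to 22052023 of GRCm38, minus strand) stood at 58.2, 57.1 and 52.9 FPKM in SMC-Ctrl replicates 1 to 3 and at 0.118, 0.134 and 0.138 FPKM in SMC-TAZ4SA replicates 1 to 3. It was the highest of the 3 in every SMC-Ctrl library and the lowest of them in every SMC-TAZ4SA library. The group means of 56.0 ± 2.80 and 0.130 ± 0.0106 FPKM (SD, n = 3 each) differed by 431-fold, and the log2 fold change was −5.66. No p is given, since Elavl3 passed the filter only through SMC-Ctrl. Of the 12141 tested genes, 17 had a more negative log2 fold change. For a gene near 0 in SMC-TAZ4SA, such a rank on this scale mostly follows the SMC-Ctrl level. Annotated exons of Elavl3 overlap those of Gm49318 on the same strand.

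The start region of Elavl3 is shown because this gene had the most negative log2 fold change of the 10. The RefSeq window of 300 bases on GRCm38.p6 (chr9:22051974-22052273, minus strand, 250 bases before the start to 50 after) is printed 5′ to 3′, with the letters CAGCTG in capitals. CAGCTG is an E-box, the kind of element that basic helix-loop-helix factors bind.
Elavl3 start region: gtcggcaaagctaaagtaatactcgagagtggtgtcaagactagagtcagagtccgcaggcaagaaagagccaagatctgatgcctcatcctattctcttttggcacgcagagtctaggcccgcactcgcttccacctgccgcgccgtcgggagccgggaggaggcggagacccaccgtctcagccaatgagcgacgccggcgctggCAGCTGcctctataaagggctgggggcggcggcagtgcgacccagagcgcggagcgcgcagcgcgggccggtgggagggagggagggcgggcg

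Elavl2 and Elavl4 fell less and remained measurable. Elavl2 (HuB; chromosome 4, 91250763 to 91400785, minus strand) stood at 39.7, 34.1 and 41.2 FPKM in SMC-Ctrl and at 8.49, 8.53 and 8.53 FPKM in SMC-TAZ4SA. The means of 38.3 ± 3.72 and 8.52 ± 0.0248 FPKM (SD, n = 3 each) gave a ratio of 4.50 and a log2 fold change of −2.04 (SE 0.0775, limma adjusted p = 6.35e-08). Elavl4 (HuD; chromosome 4, 110203722 to 110351909, minus strand) stood at 12.9, 11.6 and 13.0 FPKM in SMC-Ctrl and at 4.70, 3.98 and 4.29 FPKM in SMC-TAZ4SA. Its means of 12.5 ± 0.744 and 4.32 ± 0.363 FPKM (SD, n = 3 each) gave a ratio of 2.89 and a log2 fold change of −1.34 (SE 0.0753, limma adjusted p = 7.46e-07). In SMC-TAZ4SA, Elavl2 was thus the highest of the neuronal genes, followed by Elavl4, and the libraries of these genes did not overlap in either group.

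Elavl1, which encodes HuR, the family member found in most cell types, did not pass the test. It stood at 32.1, 29.8 and 32.0 FPKM in SMC-Ctrl and at 33.1, 30.9 and 30.2 FPKM in SMC-TAZ4SA. The libraries of the groups overlapped, and the log2 fold change was 0.01 (95% confidence interval −0.14 to 0.15, limma adjusted p = 0.944). Scaled to the same FPKM total it was −0.21 (limma adjusted p = 0.0121), where the median of all tested genes moved from 0.02 to −0.18. Relative to the median of all tested genes, the Elavl1 value was −0.01 as deposited and −0.03 after that scaling. Elavl1 exons overlap those of Ccl25 on the opposite strand, which stood at 2.92 to 4.66 FPKM.

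The CELF genes divided in a like way. Celf3 and Celf4, both expressed mainly in neurons, fell to 0.178 FPKM or less on average, and Celf1, the broadly expressed member, did not pass the test. Celf4 (chromosome 18, 25477632 to 25754157, minus strand) stood at 47.7, 44.1 and 45.0 FPKM in SMC-Ctrl and at 0.160, 0.182 and 0.193 FPKM in SMC-TAZ4SA. The means of 45.6 ± 1.87 and 0.178 ± 0.0167 FPKM (SD, n = 3 each) differed by 256-fold, with a log2 fold change of −5.30. A more negative one was found for 25 tested genes, a rank with the same limit as that of Elavl3. Celf3 (chromosome 3, 94478295 to 94492198, plus strand) stood at 30.2, 32.5 and 29.4 FPKM in SMC-Ctrl and at 0.0200, 0.0568 and 0.0269 FPKM in SMC-TAZ4SA. The means were 30.7 ± 1.62 and 0.0346 ± 0.0196 FPKM (SD, n = 3 each), and the log2 fold change was −4.94. For Celf3 and Celf4 no p is given, since both passed the filter only through SMC-Ctrl. The ratio of means of Celf3 was 888, and it is imprecise. After correction for relative depth the SMC-TAZ4SA values stood to each other as 2, 5 and 2, within 0.05 of whole numbers, so they may rest on that few fragments. Celf3 exons overlap Riiad1 on the opposite strand (0.156 to 0.420 FPKM in SMC-Ctrl and 0 to 0.0958 FPKM in SMC-TAZ4SA), and the sources used here do not give whether counting used strand.

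Of the other CELF genes, Celf1 did not pass the test and Celf2, Celf5 and Celf6 were lower. Celf1 (CUGBP1) stood at 51.7, 49.4 and 48.4 FPKM in SMC-Ctrl and at 49.6, 56.3 and 55.1 FPKM in SMC-TAZ4SA. Its libraries overlapped, and the log2 fold change was 0.10 (95% confidence interval −0.06 to 0.26, limma adjusted p = 0.201). It turned to −0.11 with the same FPKM total in each library (limma adjusted p = 0.288), 0.07 above the median of all genes there, and passed only without SMC-TAZ4SA replicate 1, at 0.16 (limma adjusted p = 0.0193). Celf2, expressed in brain, muscle and lymphocytes, was lower, at 27.5, 24.1 and 26.2 FPKM against 8.16, 9.39 and 8.66 FPKM, a log2 fold change of −1.47 (limma adjusted p = 4.08e-07). Celf5 stood at 4.48, 4.68 and 4.56 FPKM in SMC-Ctrl and at 0.131, 0.148 and 0.104 FPKM in SMC-TAZ4SA, and Celf6 at 6.49, 6.91 and 6.45 against 0.00991, 0.0225 and 0.0267 FPKM. The log2 fold changes were −2.31 for Celf5 and −2.90 for Celf6. Both passed the filter only through SMC-Ctrl, so no p is given.

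Of 7 RefSeq start windows of Celf3, the one with the lowest start position is shown beside that of Elavl3, and it too held CAGCTG (capitals). It lies at chr3:94478045-94478344 on the plus strand of GRCm38.p6, and is printed 5′ to 3′.
Celf3 start region: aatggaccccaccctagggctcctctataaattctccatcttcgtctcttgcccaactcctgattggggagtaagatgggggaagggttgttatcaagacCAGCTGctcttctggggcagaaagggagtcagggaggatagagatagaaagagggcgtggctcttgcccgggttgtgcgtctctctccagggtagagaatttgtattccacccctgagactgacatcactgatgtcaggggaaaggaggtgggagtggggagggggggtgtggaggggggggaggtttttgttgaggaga

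Nova1 and Nova2, whose proteins were first known as neuronal autoantigens and regulate exons of synaptic transcripts, were at low levels in SMC-Ctrl and lower in SMC-TAZ4SA. Nova1 (chromosome 12, 46694517 to 46818929, minus strand) stood at 4.0, 3.91 and 3.81 FPKM in SMC-Ctrl and at 1.60, 1.02 and 1.14 FPKM in SMC-TAZ4SA. The means of 3.91 ± 0.0937 and 1.25 ± 0.307 FPKM (SD, n = 3 each) gave a ratio of 3.12 and a log2 fold change of −1.13 (SE 0.0948, limma adjusted p = 9.70e-06). SMC-TAZ4SA replicate 1 was the highest of its group and still less than the lowest SMC-Ctrl library. Nova2 (chromosome 7, 18925888 to 18965319, plus strand) stood at 1.65, 1.58 and 1.59 FPKM in SMC-Ctrl and at 0.0525, 0.0442 and 0.0525 FPKM in SMC-TAZ4SA. Its means of 1.61 ± 0.0391 and 0.0497 ± 0.00480 FPKM (SD, n = 3 each) differed by 32.4-fold, while its log2 fold change was −1.31. Having passed the filter only through SMC-Ctrl, it is given without a p. Nova2 shows how the added 1 FPKM compresses a low gene. With 0.1 FPKM added in its place the log2 fold change was −3.51. After correction for relative depth the SMC-TAZ4SA values stood to each other as 4, 3 and 3, within 0.05 of whole numbers, and they too may rest on that few fragments. Annotated exons of Nova1 overlap those of Gm33869 on the same strand, and those of Nova2 overlap Gm26821 on the opposite strand.

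Rbfox2, the most widely expressed RBFOX gene and a regulator of exons in epithelial and mesenchymal cells as well as in neurons, differed little. It lies on chromosome 15, 77078990 to 77307004, minus strand. It stood at 42.0, 42.2 and 40.0 FPKM in SMC-Ctrl and at 33.4, 37.4 and 38.1 FPKM in SMC-TAZ4SA. The libraries did not overlap, but the highest SMC-TAZ4SA value and the lowest SMC-Ctrl value were close. The means of 41.4 ± 1.20 and 36.3 ± 2.53 FPKM (SD, n = 3 each) gave a log2 fold change of −0.19 (95% confidence interval −0.35 to −0.03, limma adjusted p = 0.0351). The call did not hold without SMC-Ctrl replicate 1 (limma adjusted p = 0.102), SMC-Ctrl replicate 2 (0.0953), SMC-Ctrl replicate 3 (0.0506) or SMC-TAZ4SA replicate 2 (0.0578), nor without the filter on low values (0.0545). The log2 fold change in these settings was −0.17 to −0.21. Rbfox1, the paralogue of neurons and muscle, was at 1.08, 1.05 and 1.28 FPKM in SMC-Ctrl and at 0.00642, 0.0219 and 0.00865 FPKM in SMC-TAZ4SA. Its log2 fold change was −1.08, given without a p because Rbfox1 too passed the filter only through SMC-Ctrl. Rbfox3, which encodes the neuronal nuclear antigen NeuN, was at 0.109, 0.0950 and 0.0804 FPKM in SMC-Ctrl. It was listed at 0, 0.0130 and 0 FPKM in SMC-TAZ4SA and was too low to be tested.

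Ptbp1, the highest of the 10 genes in every library, and Ptbp2 did not pass the test. Ptbp1 (chromosome 10, 79854427 to 79864771, plus strand) stood at 315, 329 and 335 FPKM in SMC-Ctrl and at 284, 296 and 284 FPKM in SMC-TAZ4SA. The groups did not overlap, and the means were 326 ± 9.83 and 288 ± 6.83 FPKM (SD, n = 3 each). The log2 fold change of −0.18 (95% confidence interval −0.36 to −0.00) did not pass the test (limma adjusted p = 0.0591). It passed without SMC-TAZ4SA replicate 1 (limma adjusted p = 0.0289), without the mean-variance trend (0.0181), and with each library scaled to the same FPKM total, where it was −0.40 (limma adjusted p = 5.76e-04). Relative to the median of all tested genes it was −0.20, and −0.22 once totals were made equal. Ptbp1 exons overlap E130317F20Rik on the opposite strand, at 1.36 to 1.68 FPKM. They also overlap Gm17134 and Plppr3 on that strand, for which no value is given here.

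Ptbp2 (nPTB; chromosome 3, 119718742 to 119784466, minus strand) stood at 20.2, 17.8 and 19.6 FPKM in SMC-Ctrl and at 19.7, 19.3 and 18.3 FPKM in SMC-TAZ4SA. The libraries overlapped, and the means were 19.2 ± 1.25 and 19.1 ± 0.743 FPKM (SD, n = 3 each). The log2 fold change was −0.00 (95% confidence interval −0.16 to 0.15, limma adjusted p = 0.963), and −0.21 with the same FPKM total (limma adjusted p = 0.0264), 0.03 below the median of all genes there. Ptbp3 (ROD1), the third family member, was lower, at 41.6, 37.0 and 41.8 FPKM against 19.9, 22.6 and 22.5 FPKM, a log2 fold change of −0.86 (limma adjusted p = 1.51e-05). The ratio of Ptbp1 to Ptbp2 was 15.6, 18.5 and 17.1 in SMC-Ctrl and 14.4, 15.3 and 15.5 in SMC-TAZ4SA. These ratios lay close together, and SMC-TAZ4SA lay below SMC-Ctrl in every library.

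PTBP1 is known to act on PTBP2 through exon 10, a short exon whose skipping puts the transcript out of frame and exposes it to nonsense-mediated decay. The 34 bases of this exon in the mouse annotation (GRCm38, chr3:119724612-119724645, minus strand) are printed 5′ to 3′, since they are the known link between the pair of genes. A value for the whole gene does not show how often the exon is used.
Ptbp2 exon 10: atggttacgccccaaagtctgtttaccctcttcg

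The start region of Ptbp1, the highest of the 10 genes, is given beside those of Elavl3 and Celf3, with CAGCTG in capitals. This window is chr10:79854182-79854481 on the plus strand of GRCm38.p6.
Ptbp1 start region: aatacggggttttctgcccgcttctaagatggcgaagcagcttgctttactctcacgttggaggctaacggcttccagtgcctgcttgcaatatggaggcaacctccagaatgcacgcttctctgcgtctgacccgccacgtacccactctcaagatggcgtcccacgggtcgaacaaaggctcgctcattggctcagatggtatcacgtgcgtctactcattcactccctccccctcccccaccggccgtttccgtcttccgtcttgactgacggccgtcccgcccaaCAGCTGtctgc

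The letters CAGCTG, which read the same on both strands, were found in at least one start window of 6 of the 8 members that matched the RefSeq promoter table (Elavl2, Elavl3, Elavl4, Celf3, Nova1 and Ptbp1), and in 11 of their 22 windows, several of which overlap. Of all 32851 windows 16.3% held these letters, and of all 27025 genes 18.3% had a window that did. The 8 members have more windows per gene than the table as a whole. Celf4 and Rbfox2 had no entry. GGAATG, the core of the element bound by TEAD factors, the DNA-binding partners of TAZ, was searched on both strands and was found in 1 of the 22 windows, of Nova1, against 14.7% of all windows. CAGCACC, a part of the element bound by REST, the repressor of neuronal genes, was found on neither strand in the 22 windows, against 7.14% of all. None of the 3 strings contains another. A match in these letters is a description and not a binding site. Both Ptbp1, at a log2 fold change of −0.18, and Elavl3, at −5.66, held the E-box letters.

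Within each family the mix of paralogues shifted where the neuronal genes fell. Shares were taken of the summed FPKM of a family in each library and are given as a description with no test. Elavl2, Elavl3 and Elavl4 together made up 77.4% ± 0.331 of the ELAVL sum in SMC-Ctrl and 29.2% ± 0.685 in SMC-TAZ4SA (SD, n = 3 each), and Elavl1 the other 22.6% and 70.8%. The sum itself was 138 ± 5.15 and 44.4 ± 1.78 FPKM, so the larger share of Elavl1 came with an Elavl1 level that did not pass the test. Elavl3 alone went from 40.6% to 0.294% of the sum. In the CELF family, Celf3, Celf4, Celf5 and Celf6 together went from 53.6% ± 0.865 to 0.573% ± 0.0404 and Celf1 from 30.5% to 85.5%, while the sum was 163 ± 4.25 and 62.8 ± 4.18 FPKM. Celf2 kept a near share, 15.9% and 13.9%. Nova1 made up 70.8% of the NOVA sum in SMC-Ctrl and 96.1% in SMC-TAZ4SA. In the PTBP family the mix moved little, Ptbp1 from 84.6% to 87.6%, Ptbp2 from 4.98% to 5.81% and Ptbp3 from 10.4% to 6.58%. Rbfox2 was 97.1% of the RBFOX sum in SMC-Ctrl and nearly all of it in SMC-TAZ4SA.

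**Figure D2:**
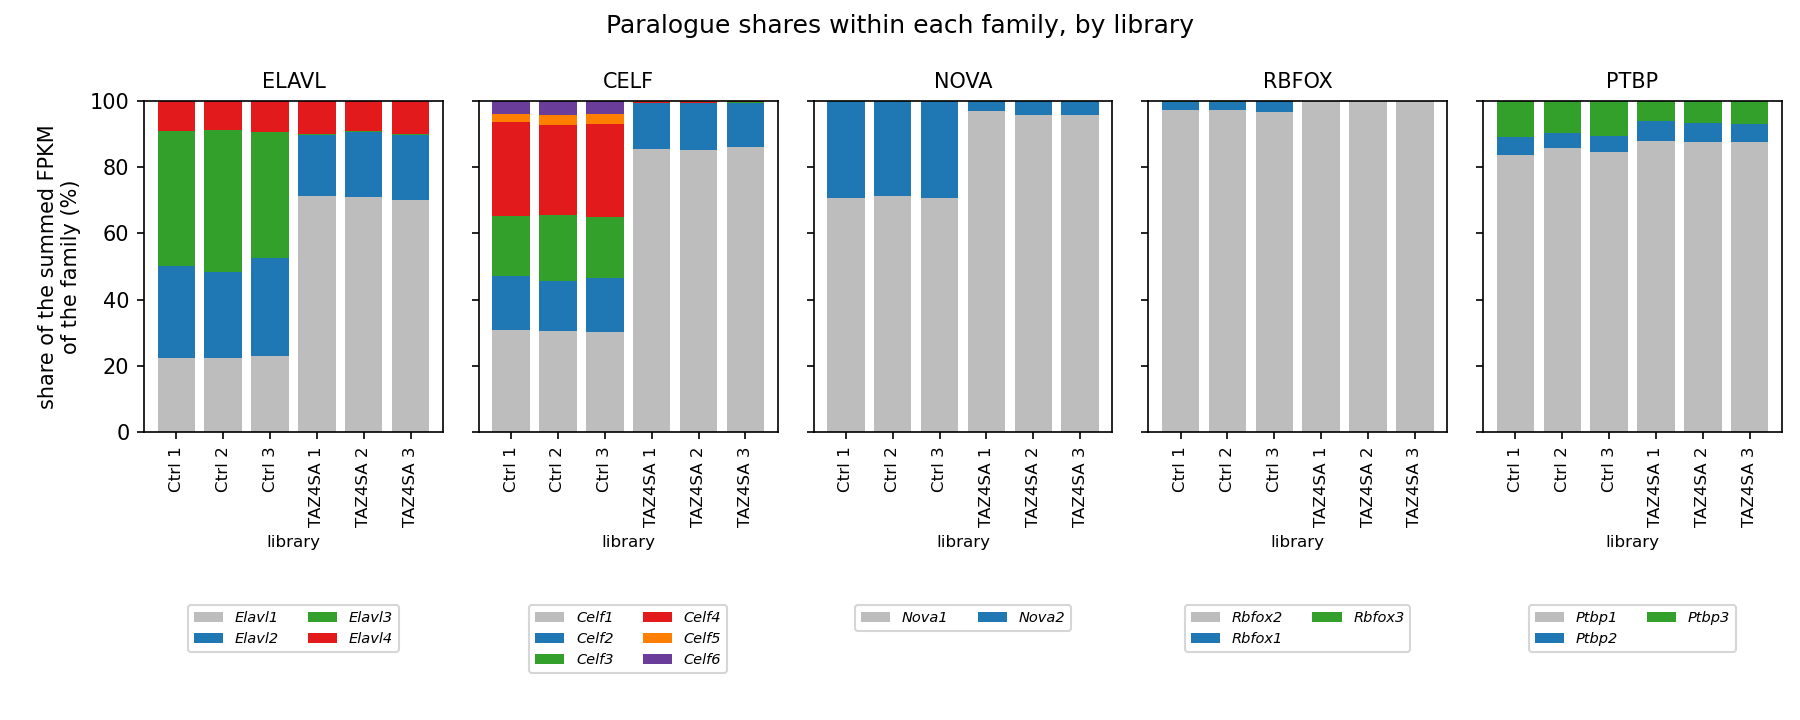
Share of each paralogue in the summed FPKM of its family (%, stacked to 100) in each of the 6 libraries, for the ELAVL, CELF, NOVA, RBFOX and PTBP families. Elavl1 (grey) goes from 22.6% to 70.8% and Celf1 (grey) from 30.5% to 85.5% on average, while the PTBP bars look alike in all libraries.

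The 8 remaining genes of the families were read from the same fit. Celf2, Celf5, Celf6, Rbfox1 and Ptbp3 were lower, none was higher, Elavl1 and Celf1 did not pass, and Rbfox3 was not tested. Their median log2 fold change was −1.08 over the 7 tested, of which 3 passed the filter only through SMC-Ctrl. The median of all tested genes was 0.02. Elavl2, Elavl4, Nova1, Celf2 and Ptbp3 reached 1 FPKM in both groups and were called lower in each of the 12 alternative settings tried. Elavl3, Celf3, Celf4, Nova2, Celf5, Celf6 and Rbfox1 were too, but where the filter was kept they had to differ to be tested. Rbfox2 was called lower in 6 of the settings.

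**Figure D3:**
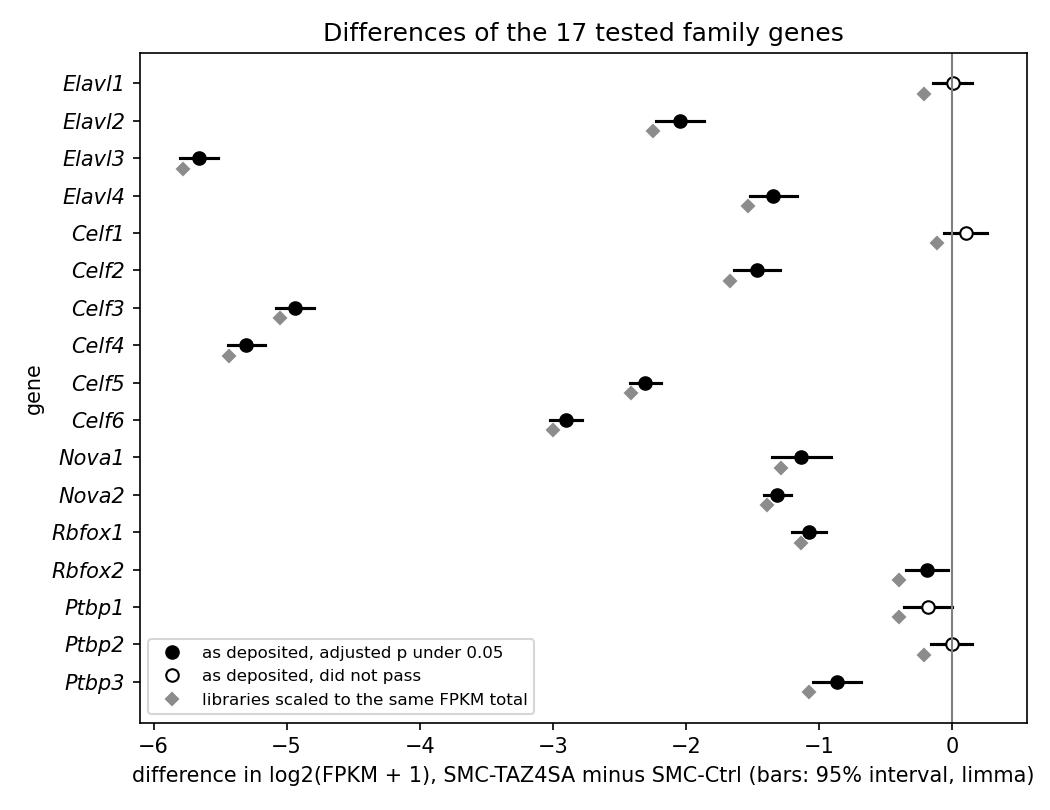
Log2 fold change (SMC-TAZ4SA against SMC-Ctrl, on log2(FPKM + 1)) of the family genes tested, with bars for the 95% confidence interval of the limma fit, filled circles for genes that passed, open circles for those that did not, and grey diamonds for libraries scaled to the same FPKM total. Elavl3, Celf4 and Celf3 lie lowest, between −5.66 and −4.94, and Elavl1, Celf1 and Ptbp2 have intervals that include 0.

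Regulators and markers of the neuroendocrine state differed between the same libraries. Rest, which encodes the repressor of neuronal genes, was at 0.230 ± 0.0315 FPKM in SMC-Ctrl and at 6.48, 12.5 and 12.8 FPKM in SMC-TAZ4SA, a log2 fold change of 3.18, and passed the filter only through SMC-TAZ4SA. Of 10 neuroendocrine markers 9 were tested, 8 were lower and Ncam1 was higher, and 5 of the lower ones passed the filter only through SMC-Ctrl. The log2 fold change was −6.17 for Chga and −6.15 for Calca, while Ncam1, whose protein was used to sort the cells, was 21.4 ± 1.18 and 78.5 ± 4.97 FPKM. By western blot the study reports less NCAM protein with TAZ-4SA, the opposite direction to this RNA. The part of Rest and these markers in the levels of the RNA-binding factors was not tested. In these bulk libraries, fewer cells of a type and less RNA per cell cannot be told apart.

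Markers of neurons and glia summed to 107 to 111 FPKM in SMC-Ctrl and to 67.0 to 71.7 FPKM in SMC-TAZ4SA. Of 14, only 5 were tested, 4 lower (among them Nefh, Mbp and Gad1) and Tubb3 higher, at 4.35 ± 0.317 and 34.4 ± 1.57 FPKM. Fibroblast markers summed to 1.72 to 2.05 FPKM in SMC-Ctrl and to 289 to 330 FPKM in SMC-TAZ4SA, and 4 of 8 were tested, all higher, 3 of them having passed the filter only through SMC-TAZ4SA. Col1a1, a collagen chain, made up most of that sum, at 276 ± 24.2 FPKM in SMC-TAZ4SA. Col1a2 and Col3a1, listed at 0 in SMC-Ctrl, were at 19.6 and 8.92 FPKM on average in SMC-TAZ4SA, and Thy1 rose from 1.28 to 9.97 FPKM. Pdgfra, not tested, was at 0.323 and 0.832 FPKM on average in SMC-Ctrl and SMC-TAZ4SA. Dcn, Lum and Fap, also not tested, were at no more than 0.0222, 0.0186 and 0.0612 FPKM in any SMC-TAZ4SA library. Leukocyte markers (8 named, 7 in the table, 2 tested, 1 higher) summed to 0.947 to 1.20 and 3.68 to 4.51 FPKM, of which Csf1r, listed at 0 in SMC-Ctrl, gave 3.19 ± 0.209 FPKM. Cd68 was not called, at 1.07 and 0.871 FPKM on average, and Ptprc was at no more than 0.0395 FPKM in SMC-TAZ4SA. Endothelial markers (6, of which 1 was tested and higher, Kdr) summed to 0.600 to 0.659 and 2.08 to 2.47 FPKM, with Emcn and Cldn5 listed at 0. Kdr made up most of both sums, at 0.468 and 2.14 FPKM on average, and passed the filter only through SMC-TAZ4SA. Pecam1 and Tek, not tested, went the other way, from 0.101 to 0.0330 and from 0.0577 to 0.0144 FPKM on average. Cdh5, also not tested, was listed at 0 in SMC-Ctrl and at no more than 0.1198 FPKM in SMC-TAZ4SA. The part of these markers in the values above was not tested.

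Other splicing regulators, many of them of neurons, muscle or epithelium, were called in both directions. The list was not limited to genes of a tissue, and Khdrbs1, Sfswap, Srpk1 and Rbm4 were among those not called. Of the 26 genes of this list, 23 were tested, 7 were higher, 10 lower and 6 not called. The shares of all tested genes were 40.7% higher and 39.7% lower, so the counts lie near the background. The median log2 fold change was −0.16. Srrm3, Srrm4 and Rbm24 passed the filter only through SMC-Ctrl and Rbpms2, Rbm20 and Rbm47 only through SMC-TAZ4SA, so these 6 had to differ, and their values are given without a p. Among the lower genes were the neuronal microexon factors Srrm4 and Srrm3. Srrm3 stood at 11.0 ± 0.455 FPKM in SMC-Ctrl and at 0.0122 FPKM in SMC-TAZ4SA (log2 fold change −3.57). Srrm4, chosen here after its values were seen, stood at 7.61, 7.29 and 6.64 FPKM and at 0, 0.0115 and 0.0136 FPKM. Khdrbs3 (SLM2), a STAR-family splicing factor, fell from 81.3 ± 4.02 to 3.07 ± 0.578 FPKM (−4.35, limma adjusted p = 3.64e-09), and Rbm24, a muscle splicing factor, from 8.87 ± 0.381 to 0.0498 ± 0.0150 FPKM (−3.23). The epithelial factor Esrp1, also chosen after its values were seen, was lower by 2.41 on the log2 scale. Among the higher genes, Mbnl1, which acts on exons of muscle differentiation, rose from 20.8 ± 1.70 to 82.7 ± 4.57 FPKM (1.94, limma adjusted p = 8.55e-08). Rbpms2, a smooth-muscle factor, was at 0.0143, 0 and 0.0148 FPKM in SMC-Ctrl and rose to 12.7 ± 0.705 FPKM (3.76), and Rbm20, the titin splicing factor of heart, from 0.396 ± 0.0290 to 5.34 ± 0.556 FPKM (2.18).

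In the general splicing machinery, genes were again called in both directions, and the shares of all tested genes were 40.7% higher and 39.7% lower. Of 13 genes for SR and related proteins, many of which promote exon inclusion, 12 were tested. Among these, 2 were higher (Srsf6 at 0.68 and Srsf9 at 0.59), 5 lower and 5 not called. Srsf4 fell by 0.82, Srsf10 by 0.40 and Srsf7 by 0.32 on the log2 scale, and 8 were lower instead of 5 without SMC-TAZ4SA replicate 1. Of 30 genes for hnRNP proteins and PTB cofactors 29 were tested, 2 were higher (Pcbp2 at 0.58 and Pcbp4 at 0.45), 15 lower and 12 not called, with a median of −0.21. Hnrnpa3 had the most negative value of these, −1.44, at 93.5 ± 4.11 and 33.9 ± 3.03 FPKM. Of 32 genes for core spliceosome proteins 14 were higher, 4 lower and 14 not called, with a median of 0.17. Snrpn, the paralogue of SmB expressed in brain, was higher, at 0.306 ± 0.0775 and 4.71 ± 0.673 FPKM (2.12), and passed the filter only through SMC-TAZ4SA. Prpf6 at 1.36 and Snrpb2 at 1.07 rose too, and Snrpf fell by 0.60, Snrnp200 by 0.42 and Snrpg by 0.39 on the log2 scale, the last with overlapping libraries and not called without SMC-Ctrl replicate 1 or 2 or SMC-TAZ4SA replicate 1 or 2 (limma adjusted p = 0.0938 to 0.133). With the same FPKM total in each library, 8 core genes were higher and 10 lower. The Ptbp1 value of −0.18 was close to the median of the hnRNP genes, the class to which it belongs by function.

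Among 30 genes for proteins of mRNA stability and translation, 29 were in the table and 25 tested, 11 higher, 9 lower and 5 not called, with a median of −0.11. These counts too lie near the 40.7% higher and 39.7% lower of all tested genes, and Igf2bp1, Igf2bp3 and Lin28a passed the filter through one group only. The oncofetal IGF2BP genes, whose proteins bind and stabilise mRNA, were higher. Igf2bp1 had a listed value of 0 in each SMC-Ctrl library and stood at 5.20, 5.76 and 5.43 FPKM in SMC-TAZ4SA. Igf2bp3 rose by 2.18 and Igf2bp2 by 1.92 on the log2 scale. Lin28a and Lin28b, which block maturation of let-7 microRNAs, were lower. Lin28a stood at 5.64, 5.61 and 5.46 FPKM in SMC-Ctrl and was listed at 0 in all SMC-TAZ4SA libraries, and Lin28b fell by 2.04 on the log2 scale. Pum2, a repressor of translation, fell by 0.82.

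**Figure D4:**
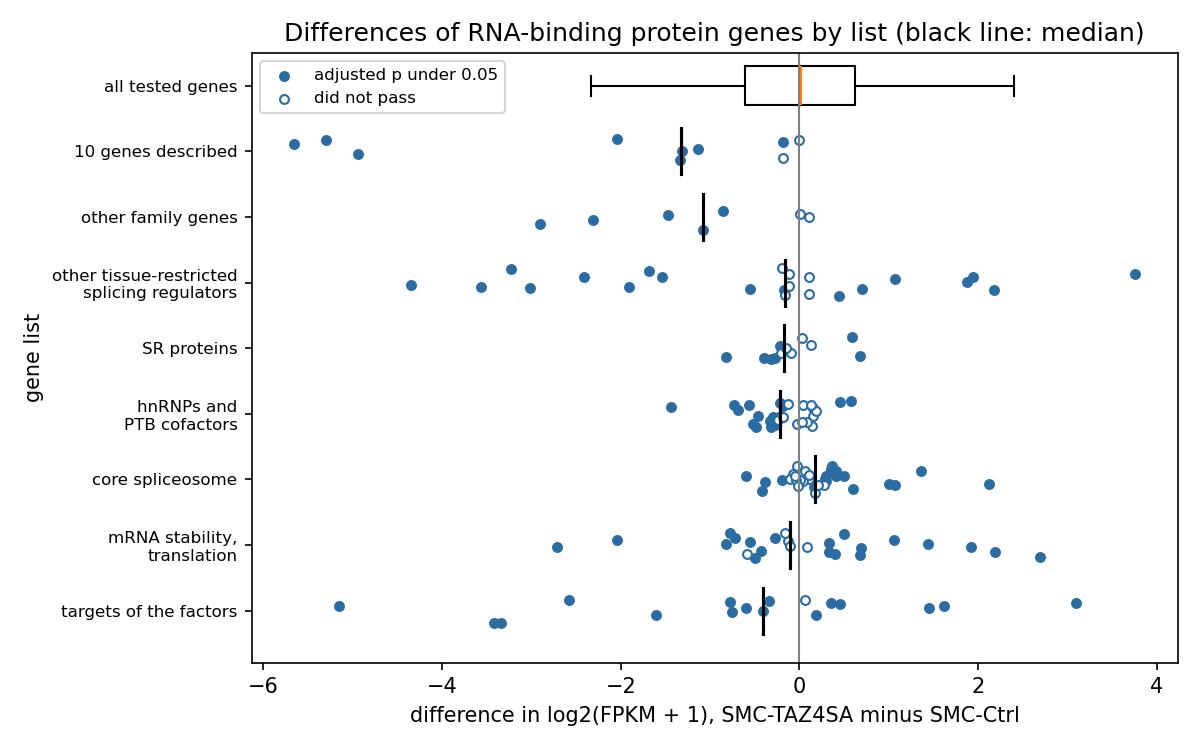
Log2 fold change (SMC-TAZ4SA against SMC-Ctrl) of each tested gene, grouped by list, with filled circles for genes that passed, open circles for those that did not, a black line at the list median and a box plot for all tested genes (box from the lower to the upper quartile, whiskers at percentiles 5 and 95). The 10 members and the other family genes have medians of −1.33 and −1.08, the core spliceosome genes 0.17 and all tested genes 0.02. Of the members 4, and of the 7 other family genes 3, passed the filter only through SMC-Ctrl and had to be lower, which bears on their medians.

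Of 20 genes whose transcripts are known targets of these factors, mostly from work in mouse brain, 17 were tested, 6 were higher, 10 lower and 1 not called, with a median of −0.40, against 40.7% higher and 39.7% lower of all tested genes. Of the 17, 4 passed the filter only through SMC-Ctrl, Snap25 and Dab1 among them, and Gap43 only through SMC-TAZ4SA. Snap25, a synaptic SNARE protein, stood at 35.3 ± 0.681 FPKM in SMC-Ctrl and at 0.0217 ± 0.0127 FPKM in SMC-TAZ4SA (−5.15). Dab1, an adaptor in reelin signalling, was at 9.18 ± 1.01 FPKM in SMC-Ctrl and at 0.00486, 0 and 0 FPKM in SMC-TAZ4SA. Flna, the actin cross-linker filamin A, whose transcript carries an exon that PTBP1 represses, was higher, at 35.8 ± 1.55 and 316 ± 41.1 FPKM (3.10, limma adjusted p = 2.85e-08). Agrn rose by 1.62, and Gap43, a growth cone protein whose mRNA is stabilised by HuD, by 1.45 on the log2 scale. Dlg4, whose transcript is open to decay when PTBP1 and PTBP2 cause skipping of an exon, was chosen after its values were seen. It stood at 9.85 and 7.56 FPKM on average, a log2 fold change of −0.34. Levels of whole genes do not show the use of any exon in these targets.

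For the member (of the 10) with the highest mean FPKM over the 6 libraries in each family, the 2 tested genes with the nearest 6 values on the log2(FPKM + 1) scale were found by Euclidean distance over the 6 libraries. The nearest to Elavl3 were St18, a zinc-finger transcription factor, at a distance of 0.283 and Scg5, a secretory granule protein, at 0.321. The nearest to Celf4 were Ptpru, a receptor tyrosine phosphatase, at 0.297 and Stmn3, a neuronal stathmin, at 0.327. The nearest to Nova1 were Dusp22 at 0.234 and Fam89a at 0.251, those to Rbfox2 were Nras at 0.122 and Atf6b at 0.171, and those to Ptbp1 were Hnrnpf at 0.330 and Calm2 at 0.370.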

How the data were processed

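Total RNA was extracted with TRIzol from SMC-Ctrl and SMC-TAZ4SA cells (3 libraries each) and sequenced as 150 bp read pairs on a NovaSeq. The submitters' processing notes name the mm10 build and STAR 2.6. The authors deposited FPKM per gene symbol, and the sources used here give neither the tool nor the annotation nor the strand setting behind them. The study names a count-based test, which these FPKM values do not allow, so limma 3.58.1 in R 4.3.3 was used on log2(FPKM + 1), with group as the only term, a mean-variance trend and Benjamini-Hochberg adjustment. Of 23847 lines, 740 carried 254 repeated symbols and were not tested. The filter was 1 FPKM in at least 3 of 6 libraries (12141 genes). Depth is unknown. Groups follow the sample titles and the design text. In the study's data statement the entry for these samples reads SMC and non-SMC, a conflict that was left as it stands.

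The members and lists were chosen with earlier results of these data known. Named were all genes of the 5 families, the up to 3 called genes with the largest positive and the largest negative change in each other list (apart from a few not reported here), the 2 nearest genes of the highest member of each family, and the check genes Wwtr1, Cyr61, Ctgf, Cd44, Epcam and Rest. Cyr61, Ctgf and Cd44, classical targets or mesenchymal markers, rose by 8.87, 9.84 and 5.94 on the log2 scale, and Epcam fell by 1.50. Alternatives were another pseudocount (0.1), no filter, scaling to the same FPKM total or upper quartile, no trend, a replicate block, and leaving out each library. Sequences came from RefSeq (GRCm38.p6) and the GENCODE mouse annotation of GRCm38. Correlations of log2 values were 0.9952 to 0.9963 within SMC-Ctrl, 0.9902 to 0.9972 within SMC-TAZ4SA and 0.6536 to 0.6641 between the groups.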

Additional observations from a re-analysis of the deposited data

How the results depend on the processing

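Of the 9754 genes called, 4939 were higher and 4815 lower. With the same FPKM total these were 3987 and 5875, and without one library the calls numbered 9111 to 10150. Scaling to the same FPKM total or upper quartile moved the median of all genes from 0.02 to −0.18 and −0.12. The log2 fold change of Elavl1 then turned to −0.21 and −0.14 and that of Celf1 to −0.11 and −0.046, as the median did. Without one library each, Elavl1 ranged from −0.033 to 0.031, turning below 0 without SMC-Ctrl replicate 2 or SMC-TAZ4SA replicate 1, and Ptbp2 from −0.054 to 0.032, turning above 0 without SMC-Ctrl replicate 1, SMC-Ctrl replicate 3 or SMC-TAZ4SA replicate 3. The cause of these turns was not tested. Of the 10 members, 7 to 10 were lower over all settings and none was higher. Leaving out a library gave 7 to 9. Elavl3, Celf3, Celf4 and Nova2, which passed the filter only through SMC-Ctrl, were among the lower members in each setting.

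With the same FPKM total, and also with the same upper quartile, 8 SR protein genes were lower, 8 core spliceosome genes were higher and 10 lower. Leaving out one library gave 4 to 8 lower SR protein genes, 0 to 1 higher among the other family genes (Celf1, without SMC-TAZ4SA replicate 1) and 0 to 1 lower leukocyte markers, of which the same FPKM total gave 1. Without the filter, 2 core spliceosome genes were lower, and among markers 3 of neurons and glia were higher, 2 of fibroblasts lower, 2 of leukocytes higher, and 2 of endothelium higher and 2 lower. The cause was not tested.

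The replicate numbers of the titles gave no sign of a pairing of the libraries. Deviations of same-numbered libraries from their group means correlated at −0.25, −0.0599 and −0.307. Those of libraries with unlike numbers correlated at −0.296 to 0.389. With 3 libraries a group, such values cannot show whether a pairing existed. The fit with the replicate number as a block called 4735 genes higher and 4615 lower, 9350 in all, with 2 core spliceosome genes lower, and Rbfox2, at the same −0.19, had a limma adjusted p of 0.0904.

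With 3 libraries a group, FPKM without counts, and SMC-TAZ4SA values of 0.178 FPKM or less on average, the ratios of Elavl3, Celf3, Celf4 and Nova2 are imprecise. Exon use, protein and transcript isoforms were not measured.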
